A study of Rattus norvegicus with 10 samples.

Results

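A set of 8 genes of folate uptake and of cytosolic or mitochondrial folate metabolism was followed in rat thyroid cells after silencing of the transcription factor FoxE1. They are Folr1, Slc19a1 and Slc46a1, which bring folate into cells, Fpgs, which retains it, and Shmt1, Mthfd1, Mthfd1l and Aldh1l1, which carry one-carbon units on it. They were chosen by measured values of these arrays, since Folr1 had a high log2 ratio of siFoxE1 over wt and the one-carbon genes did not, and every probe whose transcript belongs to one of the 8 genes was taken. Of the 15154 genes named on the array, 6 of these 8 had a probe, 1 probe each among 30367 probes, and no probe was matched to Shmt1 or Mthfd1l.

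PCCl3 is an established rat cell line of thyroid follicular origin, which goes on expressing thyroid genes when grown in a dish. Cells received 25 nM of a pool of siRNAs against FoxE1 (siFoxE1), or a non-silencing siRNA (siScramble), or were left untreated (wt), and RNA was taken at 48 h. RNA of 4 cultures per condition was compared on 10 Agilent arrays that carry 2 dyes, with siFoxE1 in Cy5 on 4 arrays against siScramble and 4 against wt, and 1 array per comparison with pooled RNA of the same cultures and swapped dyes. Both comparisons use the same siFoxE1 RNA, so they share it and are not independent, and no array held siScramble beside wt. All cells are of 1 line and the controls share its culture medium, which contains TSH and insulin. The wt cells saw no transfection, so transfection and silencing cannot be told apart in siFoxE1 vs wt.

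Folate enters cells by a membrane receptor that takes it up by endocytosis, such as folate receptor alpha (Folr1), by the reduced folate carrier (Slc19a1) or by the proton-coupled carrier (Slc46a1). Inside, folylpolyglutamate synthase (Fpgs) adds glutamates that keep folate in the cell, and gamma-glutamyl hydrolase (Ggh) removes them. One-carbon units from serine are then carried on folate to make thymidylate, purines and methionine, by parallel sets of enzymes in the cytosol and in mitochondria.

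The thyroid follicular markers Tg, Pax8 and Nkx2-1 were well above background in all 20 channels (2 per array). Chga, a marker of C cells, and Dcn, Pecam1 and Tek, markers of fibroblasts and endothelium, were well above background in 0 of 20, while Col1a1, Col1a2, Pdgfra, Cd14, Csf1r and Cdh5 were in all 20. Ptprc and C1qa, macrophage markers like Cd14 and Csf1r, were so in 1 and 3 of 20. Calca, of C cells, was in 2 and Kdr, of endothelium, in 5. The log2 of the summed intensity of the fibroblast list ran from 9.29 to 9.79 over the siFoxE1 cultures, 9.25 to 9.57 over siScramble and 9.26 to 9.50 over wt, and the part of any other cell type was not tested. The number of arrays limits the precision, and 56.8 to 60.3% of spots were well above background in Cy5 and 60.6 to 68.2% in Cy3. Array number 3 against wt had the widest spread of log2 ratios over tested probes (SD 0.45, against 0.18 to 0.30 on the others). The array of siScramble replicate 3 and the siScramble pool were on a second slide, and the other 8 arrays were on the first.

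FoxE1 RNA checked the labels. The log2 ratio of siFoxE1 over wt for Foxe1 was -0.52, -0.57, -0.37 and -0.65 on arrays 1 to 4 and -1.16 in the pool, and over siScramble it was -0.77, -0.49, -0.66, -0.41 and -0.98. All 10 ratios lay below 0. Foxe1 fell by 0.78 ± 0.08 (SE, n = 4) on the log2 scale against siScramble (limma, adjusted p = 0.0201) and by 0.84 ± 0.08 against wt (limma, adjusted p = 0.0385). With the dye term the pooled array weighs as much as the 4 individual arrays together, and from the individual arrays alone Foxe1 was at -0.58 and -0.53. The fit counts the pool as 1 more array of the same spread, though it holds RNA of the same 4 cultures. The SE and p values of these fits, here and below, rest on that and do not measure the spread between cultures alone. The Foxe1 call was lost without replicate 1 (adjusted p = 0.065 and 0.24 by limma) and, against wt, without replicate 2 (0.053) or 4 (0.20). In the study's design figure the colour key gives each dye to the opposite sample, and the sample labels were followed here.

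Folr1 was higher in siFoxE1 on each of the 10 arrays. In bulk RNA, a change in how many cells hold a transcript and a change in its amount per cell cannot be told apart. The log2 ratio over wt was 1.10, 0.73, 1.71 and 1.22 on arrays 1 to 4 and 1.23 in the pool. The ratio over siScramble was 0.72, 0.43, 1.13 and 1.02, with 0.90 in the pool. Array 2 was lowest and array 3 highest in both comparisons. The fitted log2 fold change was 1.21 against wt (2.32-fold) and 0.86 against siScramble (1.82-fold), given without a test because Folr1 was chosen for this pattern. For the 4 individual arrays the mean was 1.19 ± 0.41 (SD) against wt and 0.82 ± 0.32 against siScramble. Against siScramble it was 0.72 from the individual arrays of the first slide alone and 0.69 with the slide as a fixed block.

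As levels, the normalized log2 intensity of the Folr1 probe was 9.49, 10.22, 10.43 and 10.18 in siFoxE1 cultures 1 to 4. It was 8.79, 9.74, 9.33 and 9.19 in siScramble and 8.37, 9.54, 8.70 and 8.94 in wt. The siFoxE1 range overlaps that of both controls, as siFoxE1 culture 1 (9.49) lies below culture 2 of siScramble (9.74) and of wt (9.54). Within each number siFoxE1 was highest and wt lowest. These are intensities of 1 probe and are not compared with those of other probes.

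**Figure D1:**
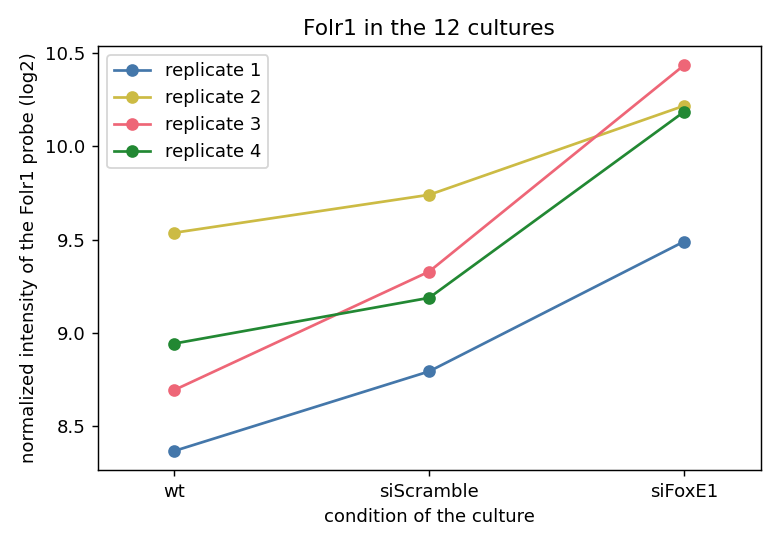
Normalized log2 intensity of the Folr1 probe (y axis) in the wt, siScramble and siFoxE1 cultures (x axis), each line joining the 3 cultures of 1 replicate number. All 4 lines climb from wt to siFoxE1, which ends between 9.49 and 10.43.

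siScramble stood above wt for Folr1 as well. Taken through the siFoxE1 RNA that both share, siScramble over wt was 0.38, 0.30, 0.58 and 0.20 for numbers 1 to 4, a mean of 0.37 ± 0.16 (SD). All 4 are above 0 and below the siFoxE1 over siScramble ratio of the same number. An interferon-response list of 12 genes moved the same way in all 3 comparisons. Of its 10 tested genes 10 were above 0 in each, with a median log2 fold change of 0.70 in siScramble vs wt (1 passed the limma test, 8 at an unadjusted p under 0.05), 1.13 in siFoxE1 vs wt (0 passed, 9 unadjusted, 7 passed with the replicate block) and 0.36 in siFoxE1 vs siScramble (0 passed, 7 unadjusted). Over all genes an unadjusted p under 0.05 was given to 16.7, 21.8 and 17.2% in the same order. In siScramble vs wt 0.146% of all genes passed, and with the replicate block 12.4% passed against wt. The part of the interferon list in the Folr1 difference was not tested.

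Slc19a1, the reduced folate carrier, was close to 0. Its log2 ratio over siScramble was -0.06, -0.13, -0.11 and -0.02 on arrays 1 to 4 and 0.20 in the pool, and over wt -0.24, -0.02, -0.17 and -0.11 with 0.22 in the pool. The individual arrays were all below 0 and both pools, where the dyes are swapped, were above it. With the dye term the log2 fold change against siScramble was 0.06 (95% interval -0.08 to 0.20, limma, adjusted p = 0.72), and without it -0.02. In siScramble vs wt it was -0.06 (interval -0.21 to 0.09, adjusted p = 0.72).

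Slc46a1, the proton-coupled carrier, had log2 ratios over siScramble of 0.25, 0.11, 0.05 and -0.01, with 0.17 in the pool. Over wt these were 0.14, 0.04, -0.36 and 0.01, with 0.07 in the pool. Only array 3 against wt was far below 0. The log2 fold change was 0.14 against siScramble (95% interval -0.03 to 0.30, limma, adjusted p = 0.43) and -0.14 in siScramble vs wt (interval -0.32 to 0.03, adjusted p = 0.41), where it was -0.05 without replicate 3.

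Fpgs could not be followed. Its probe was well above background in 0 of 10 siFoxE1 channels, 1 of 5 siScramble channels and 0 of 5 wt channels, so no fold is given.

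Mthfd1, the cytosolic enzyme that interconverts the oxidation states of the folate-bound carbon, was below 0 on all 10 arrays. The log2 ratio over wt was -0.51, -0.09, -0.44 and -0.43 on arrays 1 to 4 and -0.08 in the pool. Over siScramble it was -0.25, -0.05, -0.43, -0.33 and -0.18. Array 2 was nearest to 0 of the individual arrays in both. The log2 fold change against siScramble was -0.22 ± 0.08 (SE, n = 4, limma, adjusted p = 0.29, which misses 0.05), and in siScramble vs wt it was -0.11 (95% interval -0.25 to 0.04, adjusted p = 0.46). Against siScramble it was -0.07 with the slide as a fixed block. Its probe is spotted 10 times on an array, and the log2 ratios of these spots had an SD of 0.027 to 0.061.

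Aldh1l1, which oxidizes folate-bound formyl groups, was dim: its probe was well above background in 7 of 10 siFoxE1, 5 of 5 siScramble and 4 of 5 wt channels. Its log2 ratio over wt was 0.33, 0.04, 0.19 and 0.21, with 0.26 in the pool. Over siScramble it was 0.17, -0.09, 0.07, 0.11 and 0.02. All 5 ratios against wt were above 0, against 4 of 5 over siScramble. The log2 fold change was 0.04 against siScramble (95% interval -0.12 to 0.21, limma, adjusted p = 0.83), and 0.13 in siScramble vs wt (interval -0.0041 to 0.26, adjusted p = 0.34). These sizes depend on the background correction, as siScramble vs wt became 0.58 with processed signals and 0.39 with no offset, and siFoxE1 vs siScramble 0.24 with processed signals.

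**Figure D2:**
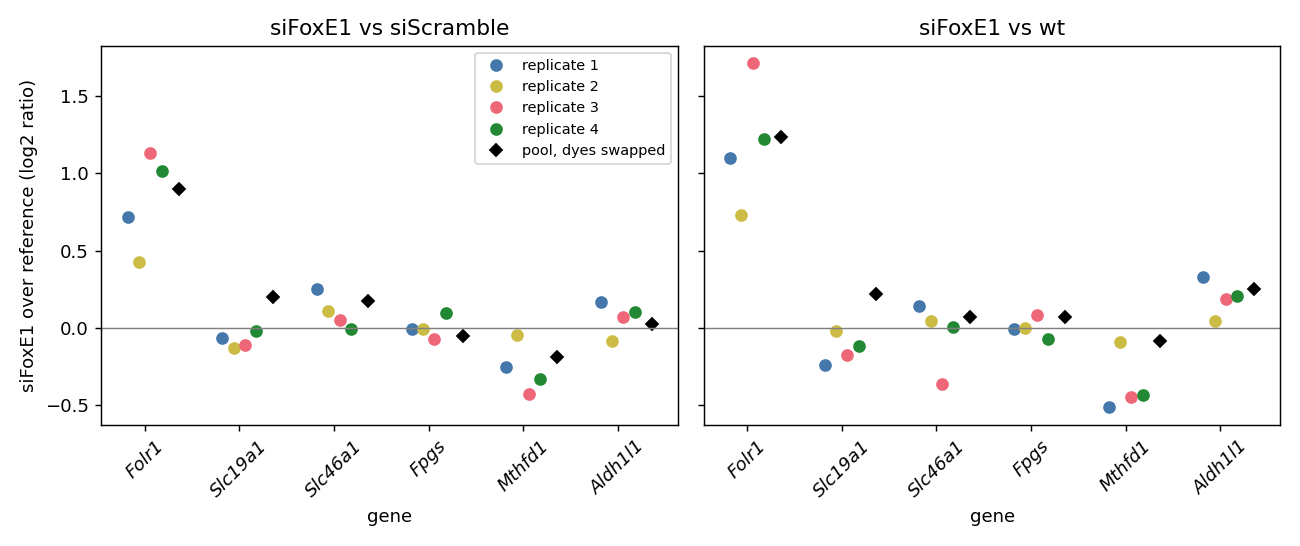
Log2 ratio of siFoxE1 over siScramble (left) and over wt (right) for the 6 genes with a probe, with circles for the 4 individual arrays and diamonds for the pool with swapped dyes. Folr1 lies above 0 on all arrays and Mthfd1 below 0 on all arrays, and the others lie on both sides of 0 in at least 1 comparison.

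Of the 4 tested genes other than Folr1, 0 passed the limma test against siScramble, where 0.165% of 9712 genes did, and 0 passed in siScramble vs wt, where 0.146% of 9571 did. The p values of these 4 genes are not independent of their choice, which used the ratios over wt. The siScramble arrays share the siFoxE1 RNA with the wt arrays, and siScramble vs wt uses both. Unadjusted p values under 0.05 were given to 1 of the 4 (Mthfd1) against siScramble, against 17.2% of all genes, and to 0 in siScramble vs wt, against 16.7%. Against wt the 8 genes are a description only, and the fitted log2 fold changes were 0.04 for Slc19a1, 0.02 for Slc46a1, -0.23 for Mthfd1 and 0.22 for Aldh1l1. Mthfd1 was at -0.37 from the individual arrays alone, and Aldh1l1 at 0.99 with processed signals and 0.64 with no offset. Ratios had 1 sign on all 5 arrays for 2 of the 5 genes with Folr1 against siScramble and for 3 of 5 against wt, and for 21.3 and 24.9% of all genes. Nothing is read from so few genes.

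The rest of the pathway was read from lists of 36 further genes, of which 32 had a probe and 29 were tested. In siFoxE1 vs siScramble 0 of 29 passed, where 0.165% of 9712 genes did (limma, 3 at an unadjusted p under 0.05, all lower, against 17.2% of all genes). In siFoxE1 vs wt 0 of 29 passed, where 0.0709% of 9873 genes did (6 at an unadjusted p under 0.05, 2 higher and 4 lower, against 21.8% of all genes). In siScramble vs wt 0 of 29 passed, where 0.146% of 9571 genes did (6 at an unadjusted p under 0.05, 1 higher and 5 lower, against 16.7% of all genes). Over the 34 tested folate genes, Folr1 among them, 26.5% had 1 sign on all 5 arrays against siScramble and 32.4% against wt. Over all genes this held for 21.3 and 24.9%. The share of all genes with 1 sign on all 10 arrays was not counted, and both sets of 5 share the siFoxE1 RNA. The median log2 fold change of the 29 genes was -0.03 in both siFoxE1 comparisons and -0.04 in siScramble vs wt, close to the all-gene medians of -0.0031, -0.0008 and 0.0053. With the replicate number as a block, which joins all 10 arrays in 1 fit, 4 of the 29 passed against wt (Mthfd2, Shmt2, Lrp2 and Atic, all lower) where 12.4% of all genes did, which is near that background, and 0 passed against siScramble, where 0.649% did.

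**Figure D3:**
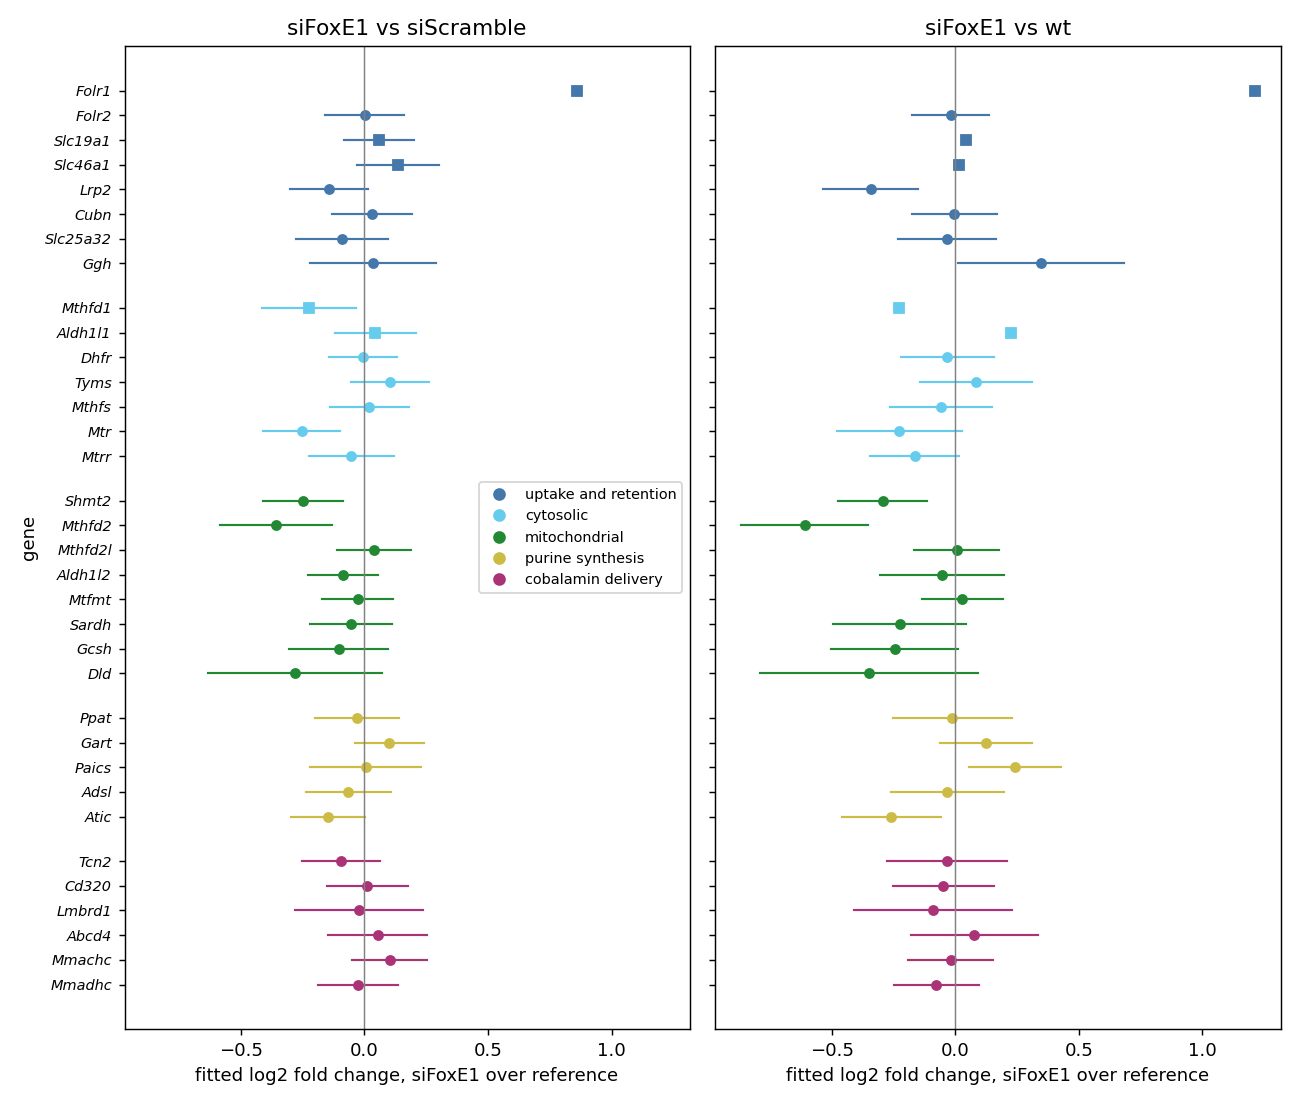
Fitted log2 fold change of siFoxE1 over siScramble (left) and over wt (right) for the 34 folate genes that passed the filter on dim probes, coloured by list, with 95% intervals from limma where a test was made. Squares are the genes named at the opening, and Folr1 (0.86 and 1.21) stands to the right of the rest in both panels.

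Mitochondrial one-carbon genes were mostly below 0. Of 8 tested, 7 had a log2 fold change below 0 against siScramble and 6 against wt, with medians of -0.09 and -0.23. In siScramble vs wt 5 of the 8 were below 0, with a median of -0.08. There 4 had an unadjusted p under 0.05 (limma), all lower, against 16.7% of all genes. Against siScramble 2 of the 8 had such a p and against wt 2, all lower, where 17.2 and 21.8% of all genes did. The all-gene medians were -0.0031 against siScramble, -0.0008 against wt and 0.0053 in siScramble vs wt. Mthfd2, the mitochondrial methylenetetrahydrofolate dehydrogenase, had log2 ratios over wt of -0.73, -0.59, -1.07 and -0.57 with -0.48 in the pool, and over siScramble of -0.53, -0.30, -0.80 and -0.39 with -0.21 in the pool. All 10 are below 0, and so are those of its other 2 probes. Its log2 fold change was -0.61 ± 0.11 against wt (SE, n = 4, limma, adjusted p = 0.18, and 0.0036 with the replicate block) and -0.36 ± 0.10 against siScramble (adjusted p = 0.21). From the individual arrays alone, a fit in which 2.46% of all genes passed against wt and 6.09% against siScramble, it was -0.74 (limma, adjusted p = 0.029) and -0.51 (adjusted p = 0.027). The slide as a block gave -0.22 against siScramble. In siScramble vs wt it was -0.23 (95% interval -0.37 to -0.10, adjusted p = 0.17).

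Shmt2, which takes the carbon from serine in mitochondria, was also below 0 on all 10 arrays. Its log2 ratios over wt were -0.31, -0.20, -0.46 and -0.29, with -0.27 in the pool. Over siScramble they were -0.18, -0.05, -0.29, -0.10 and -0.34. The log2 fold change was -0.29 ± 0.07 against wt (SE, n = 4, limma, adjusted p = 0.22, and 0.018 with the replicate block), -0.25 ± 0.07 against siScramble (adjusted p = 0.21) and -0.16 in siScramble vs wt (adjusted p = 0.25). Shmt2 against siScramble was -0.16 from the individual arrays alone and -0.11 with the slide as a block. Dld and Gcsh, parts of the glycine cleavage system, had log2 fold changes against wt of -0.35 (limma, adjusted p = 0.35) and -0.24 (adjusted p = 0.29). Against siScramble they were -0.28 for Dld (-0.45 from the individual arrays alone) and -0.10 for Gcsh, and in siScramble vs wt -0.0028 and -0.23. Sardh was at -0.22 against wt (limma, adjusted p = 0.33), -0.06 against siScramble and -0.30 in siScramble vs wt (adjusted p = 0.18). Aldh1l2 was at -0.05, -0.09 and 0.07 in the same order.

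A list of 10 stress-response genes, which holds Atf4 and Asns, was low in the same comparisons. 9 of the 10 were below 0 against siScramble and 9 against wt, with median log2 fold changes of -0.31 and -0.48, and its mean log2 level ran from 11.29 to 12.98 over siFoxE1, 11.59 to 13.14 over siScramble and 12.04 to 13.25 over wt. In siScramble vs wt 9 of the 10 were below 0 too, with a median of -0.16. In each of the 3 comparisons 0 of its genes passed the limma test. An unadjusted p under 0.05 was given to 7 against siScramble, 4 against wt and 3 in siScramble vs wt. For all genes these shares were 17.2, 21.8 and 16.7%. With the replicate block 4 passed against wt, namely Psph, Atf4, Asns and Sesn2, all lower, where 12.4% of all genes did, and 0 against siScramble. Its part in the mitochondrial genes was not tested. The cell cycle list had a median of 0.0074 against siScramble, 0.20 against wt and 0.24 in siScramble vs wt. The mean log2 level of the cell cycle list spanned 1.94 over the siFoxE1 cultures, 1.52 over siScramble and 1.51 over wt.

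Among the other uptake genes, Lrp2, the endocytic receptor megalin, had log2 ratios over wt of -0.37, -0.33, -0.21 and -0.54 with -0.32 in the pool, and over siScramble of -0.39, -0.28, -0.22 and -0.42 with 0.04 in the pool. The pool against siScramble is the only one of the 10 above 0. Its log2 fold change was -0.34 ± 0.08 against wt (limma, adjusted p = 0.22, and 0.039 with the block) and -0.14 ± 0.07 against siScramble (adjusted p = 0.39). From the individual arrays alone Lrp2 was at -0.33 against siScramble (adjusted p = 0.032), and with processed signals it was -0.54 against wt. A second Lrp2 probe gave -0.21 and -0.03. Folr2, the neighbour of Folr1 and its paralog, had log2 fold changes of -0.02 against wt (adjusted p = 0.90) and 0.0014 against siScramble (adjusted p = 1.00), Cubn of -0.004 and 0.03 and the mitochondrial folate carrier Slc25a32 of -0.03 and -0.09.

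Ggh, the hydrolase that lets folate leave the cell, differed in its values between both references. Its log2 ratio over wt was 0.22, 0.15, 0.76 and 0.75 with 0.22 in the pool, all above 0. Over siScramble it was 0.03, -0.20, 0.27, 0.39 and -0.05, on both sides of 0. The log2 fold change was 0.35 ± 0.14 against wt (limma, adjusted p = 0.27), 0.04 ± 0.11 against siScramble (adjusted p = 0.93) and 0.35 in siScramble vs wt (0.19, 0.35, 0.49 and 0.36 for numbers 1 to 4, adjusted p = 0.10). With processed signals it was 0.56 against wt and 0.52 in siScramble vs wt, and in siScramble vs wt it passed with the pooled difference added (0.33, limma, adjusted p = 0.029). That fit counts the pools as 1 more independent difference, though they hold RNA of the same 4 cultures. Over all genes 102 passed in it, against 14 without the pools.

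**Figure D4:**
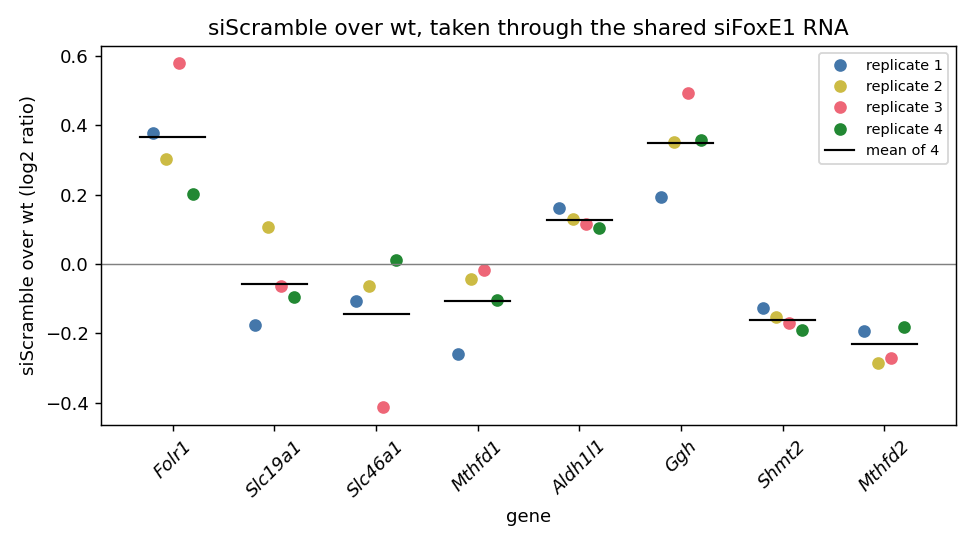
Log2 ratio of siScramble over wt (y axis) for 8 genes, each point the difference within 1 replicate number and each bar the mean of 4. Folr1 and Ggh lie above 0 in all 4 numbers, with means of 0.37 and 0.35, and Mthfd2 and Shmt2 lie below 0 in all 4.

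Cytosolic genes were mixed. Mtr, methionine synthase, had a log2 fold change of -0.25 ± 0.07 against siScramble (limma, adjusted p = 0.20) and -0.23 ± 0.11 against wt (adjusted p = 0.31), with all 10 ratios below 0, from -0.66 to -0.09. With processed signals Mtr was at -0.48 and -0.54, with no offset at -0.40 and -0.36, and with the slide as a block at -0.15 against siScramble. Its partner Mtrr had -0.05 and -0.16, thymidylate synthase (Tyms) 0.10 and 0.09 and Mthfs 0.02 and -0.06 in the same comparisons, none with an adjusted p under 0.05. In the purine list Atic, the last enzyme of the pathway and one that uses formyl folate, had -0.15 ± 0.06 against siScramble (adjusted p = 0.36) and -0.26 ± 0.08 against wt (adjusted p = 0.23, and 0.038 with the block), again below 0 on all 10 arrays. From the individual arrays alone Atic was at -0.26 against siScramble (adjusted p = 0.048). Paics had 0.24 ± 0.08 against wt (adjusted p = 0.23) and 0.005 ± 0.095 against siScramble, Gart 0.12 and 0.10, Adsl -0.03 and -0.06 and Ppat -0.01 and -0.03 against wt and siScramble. Against wt Ppat was at -0.32 from the individual arrays alone, with 0.30 in the pool. Cobalamin genes lay between -0.09 and 0.10 in both comparisons, among them Tcn2, Lmbrd1, Abcd4 and Mmachc.

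Over the 12 cultures, the gene whose log2 level was most like that of Folr1 was Hcn2 (Pearson r = 0.97), followed by Dynlrb2 (0.97), Ankrd54 (0.96), Hdc (0.96) and Capg (0.96), among 9570 genes compared. The cultures share numbers, slides and siFoxE1 RNA, so r is a description. These genes were picked by r over cultures of all conditions, so their fold changes partly follow from that choice and are a description too. The fitted log2 fold changes against siScramble and wt were 0.38 and 0.60 for Hcn2, 0.77 and 0.98 for Dynlrb2, 0.45 and 0.48 for Ankrd54, 0.21 and 0.28 for Hdc and 0.21 and 0.45 for Capg. Among the members, r with Folr1 was 0.44 for Aldh1l1, 0.09 for Mthfd1, -0.34 for Slc19a1 and -0.54 for Slc46a1. On the chromosome, Folr2 and the pseudogene Rpl12-ps3 precede Folr1 in the gene table and Anapc15 and Lrtomt follow it. Anapc15 had log2 fold changes of 0.07 against siScramble and 0.17 against wt.

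Promoters were read from the RefSeq table of assembly GRCr8, from 250 bases before to 50 after a gene's start. 35 of the 44 folate genes had an entry. Folr1 and Mthfd1 had none, so their promoters were not searched. The letters AAACA, the core that forkhead factors prefer, were searched on both strands, where they read TGTTT on the other. They stood in 17 of the 35 promoters, and in 51.9% of all 33469, so the folate genes are near that share. Of the 6 genes named at the opening that had an entry, 2 held the letters. Shmt2 and Mthfd2, low on all 10 arrays, and Slc19a1 are shown, with the matches in capitals. Shmt2 has 5 matches, some overlapping, Mthfd2 has 0 and Slc19a1 has 1. They lie at chr7:65249518-65249817, chr4:117380301-117380600 and chr20:11600887-11601186, each on the minus strand.
Shmt2: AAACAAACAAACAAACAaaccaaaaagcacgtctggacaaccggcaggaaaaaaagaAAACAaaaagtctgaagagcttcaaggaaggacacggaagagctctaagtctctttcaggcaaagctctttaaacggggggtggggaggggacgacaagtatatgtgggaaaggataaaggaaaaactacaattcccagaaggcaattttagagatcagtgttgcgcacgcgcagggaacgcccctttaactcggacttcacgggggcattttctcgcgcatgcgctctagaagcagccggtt
Mthfd2: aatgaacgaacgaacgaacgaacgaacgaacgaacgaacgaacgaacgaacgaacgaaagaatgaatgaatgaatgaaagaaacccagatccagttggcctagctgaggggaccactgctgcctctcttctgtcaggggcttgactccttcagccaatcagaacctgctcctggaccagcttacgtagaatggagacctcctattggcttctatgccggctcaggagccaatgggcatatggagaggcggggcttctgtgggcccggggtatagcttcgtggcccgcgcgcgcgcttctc
Slc19a1: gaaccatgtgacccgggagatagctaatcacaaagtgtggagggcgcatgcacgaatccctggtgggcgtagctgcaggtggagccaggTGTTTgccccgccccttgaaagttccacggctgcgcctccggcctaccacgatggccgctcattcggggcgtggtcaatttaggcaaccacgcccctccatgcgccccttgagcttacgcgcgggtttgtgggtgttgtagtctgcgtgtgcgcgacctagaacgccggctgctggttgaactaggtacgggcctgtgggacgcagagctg
The match is a description of these letters and says nothing of binding.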

How the data were processed

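The 10 arrays of PCCl3 cells were analysed from the scanner output. Scans had been quantified by the authors in Feature Extraction 10.7.3.1, and the deposited files give median spot and background intensity for each dye, with a log10 ratio of red over green that the authors' software derived from its processed signals and that was only used to check the direction of the pooled columns in the authors' table. The authors' table of normalized log2 ratios (loess and quantiles, with limma 3.2.3 named in the submitters' notes) served as an alternative. Deposited fold changes and p values were not used.

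Here the intensity values went through normexp (offset 50), then loess inside each array and Aquantile across arrays, and spots of a probe were averaged. Control and outlier spots (1.25 to 1.60% per array) were left out. Ratios were turned to siFoxE1 over reference by the labelled dyes. Testing required that at least 0.5 of a probe's spots were well above background, on 3 or more of 5 arrays in either channel. Transcript identifiers gave a gene to 17998 of 30367 probes. limma 3.58.1 under R 4.3.3 fitted each comparison on its 5 arrays with a dye term, in which the pooled array weighs as much as the 4 others together, and siScramble vs wt on the 4 differences within a replicate number. The p values were adjusted over all probes tested (Benjamini-Hochberg, threshold 0.05), and a gene is its brightest tested probe. The fits were tested on simulated data, in which the pool of a siFoxE1 comparison was drawn as an independent array of the same spread. The simulation therefore does not cover the cultures that the pool shares or the shared siFoxE1 RNA.

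The design figure draws 1 siFoxE1 sample for both arrays of a number. Deviations of same-numbered arrays correlated at r = 0.63, 0.75, 0.78 and 0.41 for numbers 1 to 4, and those of different numbers at -0.65 to 0.52. The r of number 4 lay below the highest r of different numbers, and the r of each other number lay above it. These correlations therefore do not set number 4 apart from unpaired arrays, and its pairing rests on the design figure. The members and lists were chosen with earlier results of these data known. Named genes were the 8 genes, Foxe1, those passing in a fit, up to 4 per list with the largest change, the 5 most like Folr1 and its 2 neighbours on each side.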

Additional observations from a re-analysis of the deposited data

Results flagged for a closer look

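In 3 of 93 groups of 4 values one lay far from the others, and chance gives about 1 in 20. Mtr in siScramble vs wt was -0.47 for number 3, against -0.06 to -0.03 for the other numbers. Tyms in siFoxE1 vs wt was -0.25 for number 1, against 0.11 to 0.14. Aldh1l2 in siScramble vs wt was 0.36 for number 3, against -0.05 to 0.01. Array number 3 against wt had the widest spread of ratios of the 10 arrays, and the part of that in Mtr and Aldh1l2 was not tested.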

How the results depend on the processing

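Each comparison was refitted under up to 20 other settings, of which quantiles of both channels was chosen after seeing the data. The planned fit of mean spot signals was not run, since the columns read hold medians only. Loess alone gives the same ratios as loess with Aquantile by construction. The count of all genes called moved most. In siFoxE1 vs siScramble it was 16 and became 0 with processed signals, 7 with no offset, 436 without the dye term, 591 with the individual arrays alone, 82 in 1 fit of all arrays, 63 with the replicate block, 4 with the slide as a block, 116 on the first slide and 2 at the study's threshold of 0.005, and 3 to 32 without 1 replicate. In siFoxE1 vs wt it was 7 and became 0, 1, 554, 243, 1344, 1223, 566, 243 and 0 under the same settings, 3 with the authors' ratios, 2 with no filter, 18 with robust eBayes, 3 with quantiles of both channels and 0 to 73 without 1 replicate. In siScramble vs wt it was 14 and became 0 with processed signals, with no offset, in 1 fit and at 0.005, 102 with the pooled difference added, 35 with robust eBayes and 0 to 20 without 1 replicate. Among folate genes with a test, 0 of 33 were called against siScramble, 0 of 29 against wt and 0 of 33 in siScramble vs wt. Against siScramble this became 1 without the dye term and 3 with the individual arrays alone, all lower. Of all 9712 genes tested there, 436 passed without the dye term and 6.09% with the individual arrays alone. Against wt it became 3 without the dye term, 1 with the individual arrays alone and 4 in 1 fit of all arrays, all lower. It was 4 with the replicate block, 3 with the slide as a block and 1 on the first slide, all lower. Without 1 replicate it was 0 to 1 (Mthfd2 without replicate 3). Of all 9873 genes tested against wt, 12.4% passed with the replicate block and 2.46% with the individual arrays alone. In 1 fit of all arrays 1344 passed, without the dye term 554 and with the slide as a block 566. The folate share with the replicate block is near that background, and nothing about the pathway is read from these counts. In siScramble vs wt it became 1 (Ggh, higher) with the pooled difference added. The cause was not tested.

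Folr1 stayed between 0.69 and 0.93 against siScramble, 1.12 and 1.35 against wt and 0.30 and 0.45 in siScramble vs wt. Foxe1 kept its direction in both siFoxE1 comparisons but lost its call with processed signals (adjusted p = 0.18 in both), with no offset (0.086 against siScramble, 0.078 against wt), without replicate 1 (0.065 and 0.24), and, against wt, with no filter (0.051), without replicate 2 (0.053) and without replicate 4 (0.20), and it did not pass 0.005 in either comparison. Slc19a1 against wt, a value with no test, ran from -0.14 to 0.06. In all, 80 of the refitted values changed sign, in 29 results whose values lay within 0.103 of 0. With the individual arrays alone sign changed for Slc19a1 to -0.0790, Cubn to -0.0515, Folr2 to -0.0091, Tyms to -0.0191, Mthfs to -0.0986 and Sardh to 0.0709 in siFoxE1 vs siScramble, Folr2 to 0.0336, Aldh1l2 to 0.0216 and Mmachc to 0.0193 in siFoxE1 vs wt. With the processed signals sign changed for Folr2 to -0.0696 in siFoxE1 vs siScramble, Cubn to 0.0897 in siFoxE1 vs wt, Slc25a32 to -0.0063 and Mtrr to -0.0179 in siScramble vs wt. With the replicate block, and alike without it in 1 fit of all arrays (where Mtrr also went to -0.0208 in siScramble vs wt), sign changed for Folr2 to -0.0174, Mthfs to -0.0021 and Ppat to 0.0397 in siFoxE1 vs siScramble, Cubn to 0.0168, Folr2 to 0.0002 and Mmachc to 0.0060 in siFoxE1 vs wt. With the authors' ratios sign changed for Tcn2 to 0.0011 in siFoxE1 vs wt. On the first slide sign changed for Slc19a1 to -0.0695, Cubn to -0.0350, Folr2 to -0.0254, Tyms to -0.0062, Mthfs to -0.0704, Sardh to 0.12 and Adsl to 0.0185 in siFoxE1 vs siScramble, Folr2 to 0.0336, Aldh1l2 to 0.0216 and Mmachc to 0.0193 in siFoxE1 vs wt. With the mean of probes sign changed for Mtrr to -0.0152 in siScramble vs wt. Without the dye term sign changed for Slc19a1 to -0.0236, Cubn to -0.0186, Folr2 to -0.0049, Mthfs to -0.0507 and Sardh to 0.0204 in siFoxE1 vs siScramble, Folr2 to 0.0127 and Mmachc to 0.0046 in siFoxE1 vs wt. With the pooled difference added sign changed for Mtrr to -0.0208 in siScramble vs wt. With quantiles of both channels sign changed for Tcn2 to 0.0013 in siFoxE1 vs wt. With the slide as a block sign changed for Ggh to -0.0646, Folr2 to -0.0629, Gcsh to 0.0269, Sardh to 0.10, Adsl to 0.0870, Ppat to 0.18, Tcn2 to 0.0288 and Lmbrd1 to 0.15 in siFoxE1 vs siScramble, Cubn to 0.0177 and Mmachc to 0.0021 in siFoxE1 vs wt. Leaving out 1 replicate crossed 0 in siFoxE1 vs siScramble for Folr2 (-0.0129 to 0.0238), Ggh (-0.0099 to 0.0889), Lmbrd1 (-0.0619 to 0.0347) and Paics (-0.0279 to 0.0529). Leaving out 1 replicate crossed 0 in siFoxE1 vs wt for Adsl (-0.0698 to 0.0001), Cubn (-0.0195 to 0.0157), Ppat (-0.0585 to 0.0149) and Tcn2 (-0.0671 to 0.0109). Leaving out 1 replicate crossed 0 in siScramble vs wt for Aldh1l2 (-0.0221 to 0.11), Dld (-0.0634 to 0.0546), Folr2 (-0.0036 to 0.0631), Foxe1 (-0.0248 to 0.15), Mmachc (-0.11 to 0.0234), Mthfs (-0.0474 to 0.0461), Slc25a32 (-0.0093 to 0.0756) and Tcn2 (-0.11 to 0.0023). The cause of these changes was not tested.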
